A study of Mus musculus with 6 samples.

Results

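The Fc receptor genes described here are Fcgr1, Fcgr2b, Fcgr3, Fcgr4, Fcer1g and Fcgrt, 6 of the 24346 gene symbols measured by RNA-sequencing in tumor endothelial cells (ECs). The family was chosen by the level of Fcgr4, which was among the genes highest in wild-type (WT) relative to Apelin-knockout (KO) samples, so the comparison between the genotypes is given for its members as a description and without a test. Cells positive for CD31 and negative for CD45 were sorted from MC38 tumors, a mouse colon carcinoma line grown under the skin, in C57BL/6 mice aged 8 to 10 weeks. The groups were 3 WT samples and 3 Apelin-KO samples, the latter from mice on the same C57BL/6 background that carry a knockout of the gene for the peptide Apelin. Tumors were taken at day 19, and the sample titles of both groups also name saline. The sources do not state whether 1 sample is 1 mouse or a pool, so the spread given is that between samples. The study asked which transcripts of tumor ECs differ in the absence of Apelin. Apln, which encodes Apelin, was at 432.4, 434.8 and 504.1 FPKM (fragments per kilobase of transcript, scaled by the mapped reads) in WT 1, 2 and 3, against 9.96, 17.5 and 24.3 FPKM in Apelin-KO 1, 2 and 3, so that the genotype labels and this gene went together.

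Fc receptors bind the constant part of antibodies. Fcgr1, Fcgr3 and Fcgr4 encode the activating receptors for IgG that are carried by macrophages, monocytes, neutrophils and natural killer cells in different combinations, and they reach the cell surface and signal through the FcR gamma chain, the product of Fcer1g. Fcgr2b encodes the inhibitory receptor for IgG, which is found on B cells and myeloid cells and also on endothelium of the liver sinusoids. Fcgrt encodes the heavy chain of FcRn, the neonatal Fc receptor, which pairs with beta-2-microglobulin, is made by vascular endothelium and returns IgG and albumin from endosomes to the blood.

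Positions are those of the GRCm38 (mm10) annotation. Fcgr2b (chr1:170958617-170976547, minus strand), Fcgr4 (chr1:171018920-171029761, plus strand), Fcgr3 (chr1:171051174-171064935, minus strand) and Fcer1g (chr1:171229572-171234365, minus strand) lie within 1 stretch of mouse chromosome 1. Fcgr2b and Fcgr4 are 42372 bases apart, Fcgr4 and Fcgr3 are 21412 bases apart, and Fcgr3 and Fcer1g are 164636 bases apart. Fcgr1 (chr3:96282909-96293969, minus strand) and Fcgrt (chr7:45092990-45103851, minus strand) lie on other chromosomes. Fcgr4 has 1 annotated transcript of 1256 bases in 5 exons, and Fcgr2b has 7 transcripts. Windows of 75 bases, the length of 1 read, were taken from the longest transcript of each gene and searched in all transcripts of the others. Between Fcgr2b and Fcgr3, 94 were shared, 2.71% of those of Fcgr2b and 7.38% of those of Fcgr3. No other pair of the 6 genes shared any in this search. Reads from that stretch could be divided between Fcgr2b and Fcgr3 when FPKM were computed, so the split between these genes is less certain than the other levels.

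The start regions of Fcgr4, Fcgr1 and Fcgr3 are shown because these are the IgG receptors that need the FcR gamma chain, and that of Fcgrt because its level ran differently. Each is the RefSeq window (GRCm38.p6) of 250 bases before to 50 bases after an annotated start, written on the strand of the gene, and for Fcgr3, which has 2 annotated windows, the first is given. Capitals mark the letters GAGGAA, which hold the core recognised by PU.1, the myeloid and B cell factor encoded by Spi1, or TTCNNNGAA, the pattern of STAT factors, searched on both strands, so that TTCCTC is GAGGAA on the other strand.
Fcgr4, chr1:171018676-171018975, plus strand: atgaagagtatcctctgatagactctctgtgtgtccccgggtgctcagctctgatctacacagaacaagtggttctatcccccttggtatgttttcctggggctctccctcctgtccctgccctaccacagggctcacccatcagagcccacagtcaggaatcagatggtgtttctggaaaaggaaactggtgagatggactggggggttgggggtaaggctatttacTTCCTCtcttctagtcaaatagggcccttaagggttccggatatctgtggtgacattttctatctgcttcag
Fcgr1, chr3:96293920-96294219, minus strand: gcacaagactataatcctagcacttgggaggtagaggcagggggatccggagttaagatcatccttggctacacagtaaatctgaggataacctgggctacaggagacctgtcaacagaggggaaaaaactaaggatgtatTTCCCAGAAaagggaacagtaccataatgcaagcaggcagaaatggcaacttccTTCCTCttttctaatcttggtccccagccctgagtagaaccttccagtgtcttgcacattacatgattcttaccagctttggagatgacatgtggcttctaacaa
Fcgr3, chr1:171059354-171059653, minus strand: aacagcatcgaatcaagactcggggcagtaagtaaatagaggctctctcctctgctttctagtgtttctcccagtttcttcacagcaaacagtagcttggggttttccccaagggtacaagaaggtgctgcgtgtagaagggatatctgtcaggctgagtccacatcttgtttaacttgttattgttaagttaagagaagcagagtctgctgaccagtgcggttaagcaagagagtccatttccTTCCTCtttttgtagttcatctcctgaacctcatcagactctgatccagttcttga
Fcgrt, chr7:45103773-45104072, minus strand: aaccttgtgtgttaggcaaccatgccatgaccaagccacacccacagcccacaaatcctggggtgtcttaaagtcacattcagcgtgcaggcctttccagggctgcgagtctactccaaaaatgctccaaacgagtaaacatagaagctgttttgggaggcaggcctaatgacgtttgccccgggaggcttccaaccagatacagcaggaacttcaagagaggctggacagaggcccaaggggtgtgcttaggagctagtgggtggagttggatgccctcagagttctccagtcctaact
GAGGAA was found 22 bases before the start of Fcgr4, 6 before that of Fcgr3 and 55 before that of Fcgr1, and TTCNNNGAA 109 bases before the start of Fcgr1. Neither pattern was found in the windows of Fcgrt, Fcgr2b or Fcer1g. Of all 32851 windows of this length, 28.3% hold GAGGAA and 8.30% hold TTCNNNGAA, so these matches are common and are given as a description only.

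Depth was similar between the groups. It was estimated at 8990000 to 10150000 reads in WT and 9350000 to 10250000 reads in Apelin-KO, from the step that a single read makes in the low FPKM values, of which 68.4% to 71.8% lay within 0.1 of a whole read.

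The activating receptor Fcgr4, the gene that led to the choice of this family, was measured at 4.04, 8.37 and 2.497 FPKM in WT 1, 2 and 3, against 0.204, 1.39 and 1.11 FPKM in Apelin-KO 1, 2 and 3. Every WT sample was above every Apelin-KO sample, with WT 2 the highest and Apelin-KO 1 the lowest of the 6. The mean was 4.97 ± 3.04 FPKM in WT and 0.903 ± 0.621 FPKM in Apelin-KO (SD, n = 3), so that Apelin-KO samples held 18.2% of the WT mean. On the scale log2(FPKM + 1), which understates differences of low genes, Fcgr4 was higher in WT by 1.59 (SE 0.40). Among the genes whose WT samples were all above the Apelin-KO samples, this log2 difference ranked 4, just after Apln at 4.73, Cd72 at 1.82 and Cyp4f18 at 1.60, and just before Ccl8 at 1.56 and Bcl2a1b at 1.54. The value in Apelin-KO 1 rests on about 2 reads, for which the exact 95% Poisson interval spans 0.0247 to 0.737 FPKM, whereas that of WT 2 rests on about 80 reads with an interval of 6.64 to 10.4 FPKM. These read numbers were estimated from the FPKM, and the intervals cover counting error only.

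Fcgr1, the activating receptor that binds single IgG molecules with high affinity, was the lowest of the 6 genes in both groups by mean. It was at 3.21, 3.99 and 1.46 FPKM in WT 1, 2 and 3, against 0.446, 1.02 and 0.839 FPKM in Apelin-KO 1, 2 and 3. As for Fcgr4, the groups did not overlap, although WT 3 lay closer to Apelin-KO 2 than to the other WT samples. The means were 2.88 ± 1.30 and 0.767 ± 0.292 FPKM (SD, n = 3), with a log2 difference of 1.09 (SE 0.27). The exact 95% Poisson interval of WT 3, from about 32 reads, spans 0.997 to 2.06 FPKM and that of Apelin-KO 2, from about 25 reads, spans 0.658 to 1.5 FPKM, so counting error alone could exchange these samples.

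Fcgr3, the activating receptor of lower affinity on macrophages and natural killer cells, was at 16.4, 25.1 and 4.55 FPKM in WT 1, 2 and 3. In Apelin-KO 1, 2 and 3 it was at 3.06, 7.53 and 5.33 FPKM. WT 3 lay below Apelin-KO 2 and Apelin-KO 3, so the groups overlapped, and the difference in means (15.3 ± 10.3 against 5.30 ± 2.23 FPKM, SD, n = 3) came from WT 1 and WT 2. The log2 difference of 1.17 (SE 0.56) was 1.82 without WT 3 and 0.70 without WT 2.

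Fcer1g, whose product carries the activating motif for these receptors, was the most abundant of the 6 genes in WT, and its groups overlapped in the same way as those of Fcgr3. It was at 103.8, 134.2 and 42.2 FPKM in WT 1, 2 and 3. In Apelin-KO 1, 2 and 3 the levels were 18.2, 61.3 and 43.0 FPKM, so that WT 3 was again below Apelin-KO 2 and Apelin-KO 3. The means were 93.4 ± 46.9 FPKM in WT and 40.8 ± 21.7 FPKM in Apelin-KO (SD, n = 3), and the log2 difference of 1.18 (SE 0.54) was 0.70 without Apelin-KO 1.

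Fcgr2b, the inhibitory receptor, ran with the activating ones rather than against them. It was at 9.65, 14.1 and 4.44 FPKM in WT 1, 2 and 3. In Apelin-KO 1, 2 and 3 it was at 1.51, 6.31 and 3.16 FPKM, and WT 3 lay between Apelin-KO 2 and Apelin-KO 3. Its log2 difference was 1.17 (SE 0.48), and the means were 9.39 ± 4.83 and 3.66 ± 2.44 FPKM (SD, n = 3).

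Fcgrt, the only member that was higher in Apelin-KO by mean, was at 50.5, 42.0 and 51.7 FPKM in WT 1, 2 and 3, against 71.8, 49.4 and 66.8 FPKM in Apelin-KO 1, 2 and 3. Apelin-KO 2 lay below WT 1 and WT 3, so the groups overlapped. The means were 48.1 ± 5.30 and 62.7 ± 11.8 FPKM (SD, n = 3), a log2 difference of -0.36 (SE 0.17). Relative to its level, Fcgrt spread less between samples of 1 genotype than the other members, and WT 2, where the IgG receptors were highest, had its lowest value.

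**Figure D1:**
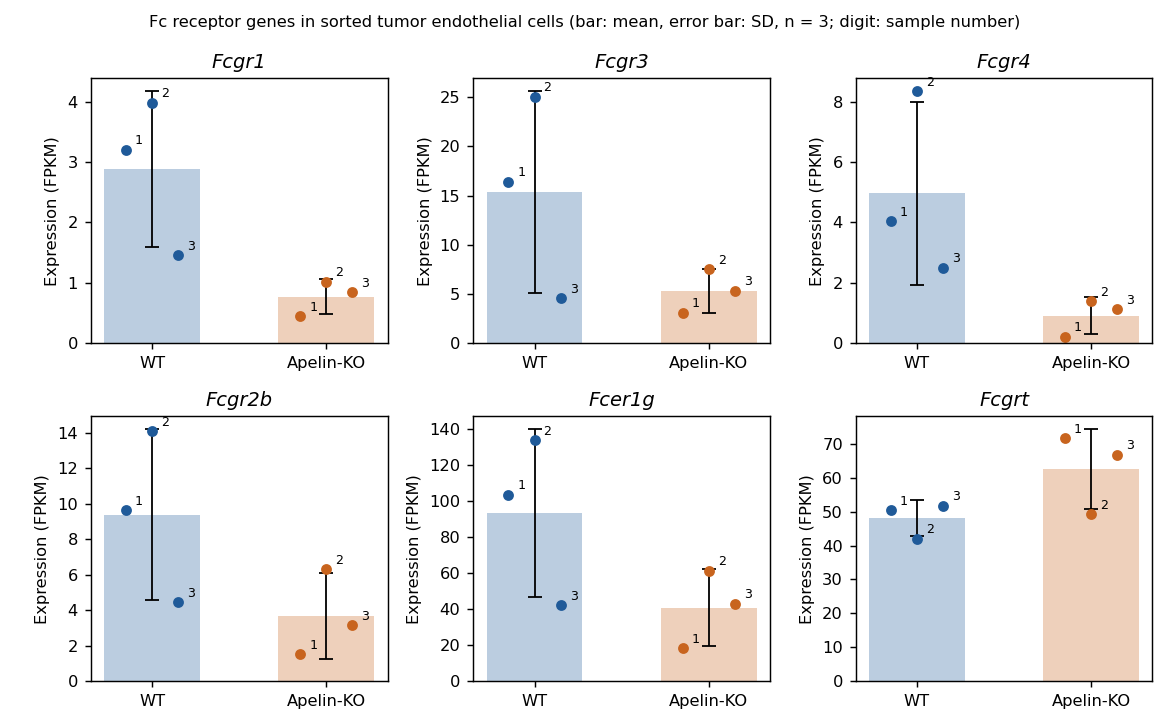
Expression of the 6 Fc receptor genes in FPKM (vertical axes, which differ between panels) in WT and Apelin-KO tumor EC samples; bars are means, error bars are SD with n = 3, and points are samples with their numbers. The groups are separate for Fcgr1 and Fcgr4 and overlap for the other 4 genes, and Fcgrt is the gene with the higher mean in Apelin-KO.

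All 6 genes were among the 10964 that were tested, those that averaged 1 FPKM or more across the samples. For the whole table, limma gave an adjusted p under 0.05 for 0.00912% of the genes, which was Apln alone. At an unadjusted p under 0.05, 5.17% of the genes tested were higher in WT and 4.25% were lower. Every WT sample was above every Apelin-KO sample for 6.61% of the genes tested and below for 7.77%, and above for the members Fcgr1 and Fcgr4. Since the family was chosen on this contrast, nothing is read from the number of members, and no test call is given for them. The median log2 difference was 1.17 over the 6 members and -0.01 over all genes tested. With 3 samples a group, an exact permutation test cannot give a two-sided p below 0.1.

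Since FPKM is given per length of transcript, the levels of the genes can be compared with each other. In WT the order of the means was Fcer1g, Fcgrt, Fcgr3, Fcgr2b, Fcgr4 and Fcgr1. The sample ranges of neighbours in this order overlapped, except that Fcgrt was above Fcgr3 in all WT samples. In Apelin-KO, Fcgrt was above Fcer1g and the rest of the order was the same. Here the ranges of Fcer1g and Fcgr3 and those of Fcgr2b and Fcgr4 were apart, and those of the other neighbours overlapped. Within each of the 6 samples Fcgr3 was above Fcgr2b and Fcgr2b above Fcgr4, and Fcgr4 was above Fcgr1 in all but Apelin-KO 1. In WT 3 Fcgr3 and Fcgr2b were close, at 4.55 and 4.44 FPKM, and the split of reads between these genes is less certain.

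The make-up of the IgG receptor transcripts is given as a description, since it uses the Fcgr4 values on which the family was chosen. The summed level of Fcgr1, Fcgr2b, Fcgr3 and Fcgr4 was 33.3, 51.5 and 12.9 FPKM in WT 1, 2 and 3, against 5.22, 16.2 and 10.4 FPKM in Apelin-KO 1, 2 and 3. Fcgr4 made up 12.1%, 16.2% and 19.3% of this sum in WT 1, 2 and 3, against 3.91%, 8.58% and 10.6% in Apelin-KO 1, 2 and 3. The groups did not overlap in this share (15.9 ± 3.60% against 7.71 ± 3.45%, SD, n = 3), although the sum itself overlapped. WT 3, with a sum below that of Apelin-KO 2, had the highest share of Fcgr4. The shares of the other genes overlapped between the groups. Fcgr3 made up 44.4 ± 7.99% in WT and 52.0 ± 6.18% in Apelin-KO, Fcgr2b 30.2 ± 3.63% and 32.7 ± 5.35%, and Fcgr1 9.54 ± 1.76% and 7.61 ± 1.20% (SD, n = 3). The ratio of inhibitory to activating transcripts, Fcgr2b over the sum of the other 3, was 0.408, 0.377 and 0.522 in WT 1, 2 and 3, against 0.408, 0.635 and 0.435 in Apelin-KO 1, 2 and 3, with no separation of the groups.

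**Figure D2:**
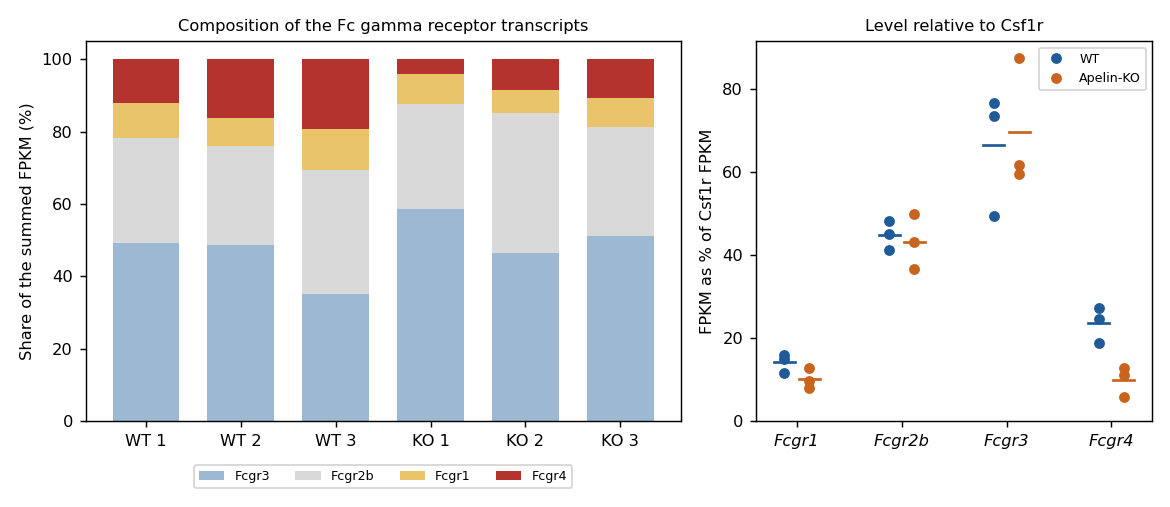
Left, share of each IgG receptor gene in the summed FPKM of Fcgr1, Fcgr2b, Fcgr3 and Fcgr4 (percent) for each of the 6 samples. Right, level of each gene as a percent of the FPKM of Csf1r, with points for samples and lines for means; Fcgr4 lies at 18.8% to 27.2% in WT and 5.83% to 12.9% in Apelin-KO, while the points of the other 3 genes overlap.

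Relative to the FcR gamma chain, Fcgr4 was at 3.89%, 6.24% and 5.92% of the FPKM of Fcer1g in WT 1, 2 and 3, against 1.12%, 2.27% and 2.58% in Apelin-KO 1, 2 and 3, and the groups did not overlap. Fcgr1 was also apart on this scale, at 3.09%, 2.97% and 3.46% in WT 1, 2 and 3, against 2.46%, 1.66% and 1.95% in Apelin-KO 1, 2 and 3. Fcgr2b and Fcgr3 overlapped between the groups relative to Fcer1g. These ratios use the same values and are a description too.

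Markers of hematopoietic cells moved with the IgG receptors, although CD45-positive cells had been gated out. Ptprc, which encodes CD45, was at 3.13, 4.84 and 1.26 FPKM in WT 1, 2 and 3, against 0.043, 1.70 and 0.740 FPKM in Apelin-KO 1, 2 and 3. Csf1r, the receptor for macrophage colony-stimulating factor, was at 21.5, 34.2 and 9.19 FPKM in WT 1, 2 and 3, against 3.501, 12.7 and 8.63 FPKM in Apelin-KO 1, 2 and 3. Both genes were highest in WT 2 and lowest in Apelin-KO 1, and the groups overlapped for both. Of 14 macrophage markers 13 were tested, and all 13 were higher in WT by mean, 7 of them at an unadjusted limma p under 0.05 and none at an adjusted p under 0.05. Their median log2 difference was 1.25, near that of the IgG receptors, and their summed level spanned 246.0 to 907 FPKM in WT and 109 to 299 FPKM in Apelin-KO. Of 12 pan-hematopoietic markers 10 were tested and all 10 were higher in WT by mean, 6 of them at an unadjusted p under 0.05, with sums of 74.4 to 219.8 FPKM against 42.7 to 84.0 FPKM. In bulk samples, fewer cells of a type and less RNA per cell cannot be told apart. The part of these cells in the levels of Fcgr1, Fcgr2b, Fcgr3, Fcgr4 and Fcer1g was not tested.

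Markers of several other cell types that carry Fc receptors were low. Of 8 neutrophil markers 7 were among the symbols and 1 was tested, Cxcr2 and Camp were listed at 0 in all samples, and the sums were 1.06 to 2.44 FPKM in WT and 1.12 to 3.37 FPKM in Apelin-KO. None of 7 B cell markers was tested, and their summed level was at most 1.19 FPKM in WT and 0.659 FPKM in Apelin-KO. Of 8 markers of mast cells and basophils 1 was tested, Mcpt4, Fcer1a and Ms4a2 were listed at 0, and the gene tested was Kit, also known from other cell types, at 48.7 ± 3.896 FPKM in WT and 63.3 ± 18.8 FPKM in Apelin-KO (SD, n = 3). The sums of 8 dendritic cell markers overlapped at 22.3 to 25.1 FPKM in WT and 24.2 to 25.5 FPKM in Apelin-KO, most of it Zbtb46, which ECs also express, and those of 6 platelet markers overlapped at 8.498 to 10.7 and 7.07 to 8.80 FPKM. Of 12 markers of natural killer and T cells 1 was tested, and their summed level was 5.35 to 8.97 FPKM in WT and 1.46 to 4.05 FPKM in Apelin-KO, with no overlap. The gene tested was Nkg7, found in the granules of cytotoxic cells, at 2.103, 4.56 and 4.12 FPKM in WT 1, 2 and 3, against 0.526, 1.76 and 0.695 FPKM in Apelin-KO 1, 2 and 3, also without overlap (log2 difference 1.21, SE 0.29, limma unadjusted p = 0.0044, adjusted p = 0.501). Of the 9 monocyte markers 5 were tested, and the sums overlapped at 50.2 to 72.8 FPKM in WT and 52.2 to 75.8 FPKM in Apelin-KO. Most of this sum was Nr4a1 and Ace, which ECs also express and which were not higher in WT by mean, at 21.6 and 23.2 FPKM in WT and 23.7 and 31.4 FPKM in Apelin-KO. Ly6c2, a marker of classical monocytes, was at 7.92, 10.4 and 2.38 FPKM in WT 1, 2 and 3, against 0.179, 2.78 and 1.06 FPKM in Apelin-KO 1, 2 and 3, with WT 3 below Apelin-KO 2 (log2 difference 1.74, SE 0.55, limma unadjusted p = 0.0160, adjusted p = 0.501). The means of Ccr2 (2.92 and 1.16 FPKM), Plac8 (6.61 and 4.35 FPKM) and Chil3 (0.995 and 0.235 FPKM) were also higher in WT, with overlapping groups. The monocyte genes, Nkg7, Kit, Zbtb46, Fap, Rgs5 and Stab1 were picked after their values were seen, and the part of monocytes or natural killer cells in the levels of the IgG receptors was not tested. Fibroblast markers were higher in WT by mean for all 7 of 10 that were tested, with sums of 197.6 to 343.8 FPKM in WT and 131.5 to 204.7 FPKM in Apelin-KO. Of these, 4 had an unadjusted limma p under 0.05 and 1 had groups that did not overlap, while Fap, below the filter, was lower in every WT sample, with means of 0.0847 and 0.411 FPKM. Pericyte markers were lower in WT by mean for 6 of the 7 tested, 2 of them at an unadjusted limma p under 0.05, and their sums of 140.3 to 179.6 FPKM in WT and 190.6 to 216.8 FPKM in Apelin-KO did not overlap. Rgs5, a pericyte gene, was at 3.44 ± 0.246 FPKM in WT and 7.78 ± 0.923 FPKM in Apelin-KO (SD, n = 3, log2 difference -0.98, SE 0.11, limma unadjusted p = 5.9e-05, adjusted p = 0.214). None of the 7 tumor epithelial markers was tested, and their sums of 0.555 to 0.860 FPKM in WT and 0.050 to 0.276 FPKM in Apelin-KO did not overlap. The part of fibroblasts, pericytes and tumor cells in the levels of the members was not tested.

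The sorted cells carried the endothelial markers in every sample. The 15 endothelial markers were all lower in WT by mean, 4 of them at an unadjusted limma p under 0.05, and their summed level was 5807 to 7075 FPKM in WT and 7242 to 7802 FPKM in Apelin-KO, with no overlap. Fcgrt, which endothelium makes, was likewise lower in WT by mean, and the part of the endothelial level in this was not tested. Pecam1, which encodes CD31, was at 586.4, 553.5 and 670.7 FPKM in WT 1, 2 and 3, against 689.0, 745.5 and 845.9 FPKM in Apelin-KO 1, 2 and 3. Cdh5, the junction protein VE-cadherin, was also lower in all WT samples, with a log2 difference of -0.46 (SE 0.17, limma adjusted p = 0.512). Of the markers of sinusoidal and lymphatic ECs, where Fcgr2b is made in the liver, Clec4g was listed at 0 and the scavenger receptor Stab2 stood at 0.281 to 0.519 FPKM. The other 6 of these 8 markers were tested and expressed in both groups, among them Stab1 at 77.9 ± 7.87 FPKM in WT and 77.0 ± 4.64 FPKM in Apelin-KO, and the summed level overlapped at 285.7 to 422.3 FPKM in WT and 331.4 to 390.4 FPKM in Apelin-KO.

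The members were also set against the macrophage markers, as a description, since Fcgr4 was chosen for its high WT values and the groups of most other members overlapped from the start. As a percent of Csf1r it was at 18.8%, 24.5% and 27.2% in WT 1, 2 and 3, against 5.83%, 11% and 12.9% in Apelin-KO 1, 2 and 3. Its ratio to the marker was higher in every WT sample than in every Apelin-KO sample for 11 of the 13 tested macrophage markers, and not for Mrc1 and Itgam. The same held for 2 of 13 markers for Fcgr1 and for none for Fcgr2b, Fcgr3, Fcer1g and Fcgrt. In the other direction, the ratio was lower in every WT sample for 1 of 13 markers for Fcgr2b and Fcgr3 and for 2 of 13 for Fcer1g and Fcgrt, and for none for Fcgr4 and Fcgr1. Fcer1g was at 445 ± 46.9% of Csf1r in WT and 500.3 ± 17.4% in Apelin-KO (SD, n = 3), and the groups were just apart, with WT 1 at 483.6% and Apelin-KO 2 at 484.0%. On the scale log2(FPKM + 1), Fcgr4 minus the mean of these markers was -1.92 ± 0.28 in WT and -2.33 ± 0.14 in Apelin-KO (SD, n = 3), and there the groups overlapped, since Apelin-KO 1 at -2.19 was above WT 1 at -2.22. The separation of Fcgr4 was thus seen in ratios to most single markers and not against their mean on the log2 scale. Both the scale and the use of a mean changed between these comparisons, and their parts were not tested. In Apelin-KO 1 Fcgr4 was at 0.204 FPKM, about 2 reads, which is below the 1 FPKM that the log2 scale adds. For Fcgr2b, Fcgr3 and Fcer1g the difference between the groups on the log2 scale was -0.0040, -0.0018 and 0.0040, and for Fcgr1 it was -0.09. Fcgr1, also a low gene, averaged 14.2% of Csf1r in WT and 10.2% in Apelin-KO, with overlapping groups. Fcgrt was at 7.97 ± 0.557% of Pecam1 in WT and 8.31 ± 1.93% in Apelin-KO (SD, n = 3), with overlap.

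**Figure D3:**
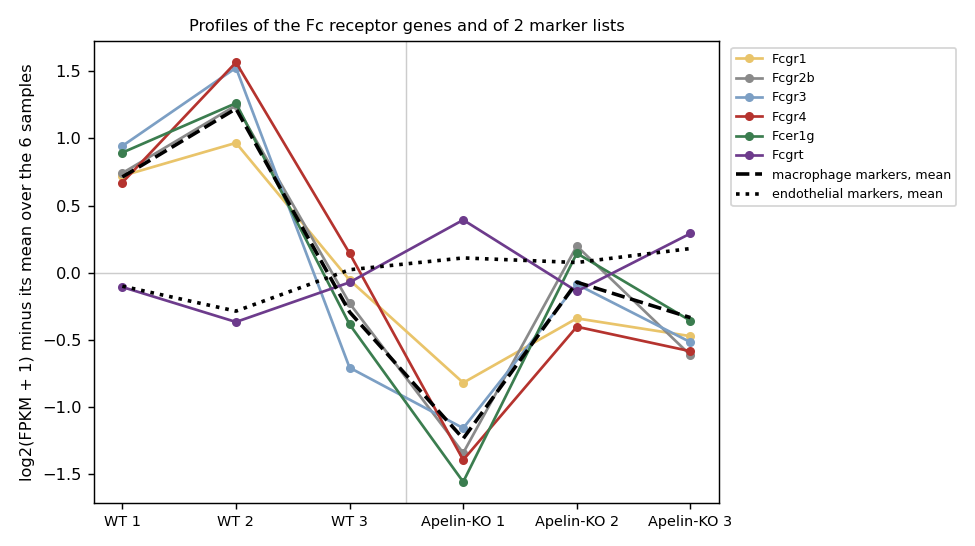
Level of each Fc receptor gene on the scale log2(FPKM + 1) minus its mean over the 6 samples (vertical axis) in each sample (horizontal axis). The mean of all 14 macrophage markers is dashed and that of the 15 endothelial markers dotted. Lines join the samples of 1 gene and carry no order. The 5 genes other than Fcgrt follow the macrophage mean, high in WT 2 and low in Apelin-KO 1, while Fcgrt follows neither list closely and is highest in Apelin-KO 1.

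The genes with the most similar course over the 6 samples were searched among all non-member genes tested, by the root mean square difference of centred log2(FPKM + 1) values. For Fcgr2b these were Ptprc (0.0685), H2-Ab1 (0.0888), an MHC class II gene, and Ms4a4c (0.116). For Fcer1g they were Csf1r (0.0948), Itgb2 (0.141), the beta-2 integrin of leukocytes, and Lair1 (0.148), an inhibitory receptor for collagen. For Fcgr1 they were Trem2 (0.0720), a receptor of macrophages that signals through Tyrobp, Edil3 (0.0990) and Adcy7 (0.1001). The genes nearest to Fcgr3 were Itgam (0.137), Ms4a7 (0.150) and the chemokine receptor Ccr1 (0.153), and those nearest to Fcgr4 included the complement receptor C5ar1 (0.176) and Cd48 (0.178). The nearest genes of Fcgrt were Nbl1 (0.0319), Zfp580 (0.0406) and Arl4a (0.0492). Among the members themselves Fcgr2b and Fcer1g were the most alike, with a difference of 0.165. Many of these genes are known from leukocytes, and several are in the marker lists above. Between none and all of the 3 nearest genes of a member remained when a sample was left out or the pseudocount was changed.

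Of the other Fc receptors, all 13 were among the symbols, 7 were listed at 0 in all samples and 2 passed the filter. Trim21, a receptor for antibodies in the cytosol, was at 8.53 to 10.7 FPKM in WT and 6.16 to 13.3 FPKM in Apelin-KO, and Fcrls, a gene of the Fc receptor-like group, at 6.32 to 22.5 FPKM and 1.78 to 9.90 FPKM. The groups overlapped for both, and neither had an unadjusted limma p under 0.05, although 1 of them did without Apelin-KO 3. Of 16 genes for immunoglobulin chains and pentraxins 4 were among the symbols and 1 was tested, Ptx3, a pentraxin of innate immunity. Ptx3 was at 15.9, 6.12 and 4.55 FPKM in WT 1, 2 and 3, against 1.42, 4.80 and 3.62 FPKM in Apelin-KO 1, 2 and 3, with WT 3 below Apelin-KO 2 (log2 difference 1.12, SE 0.47, limma adjusted p = 0.525). This difference was 0.65 without WT 1, where Ptx3 was highest. Of a list of 8 other receptors drawn up for pairing with the FcR gamma chain 2 were tested, the fungal receptors Clec4n, which does so, and Clec7a, which is known to signal through a motif in its own tail. Their log2 differences were 0.66 and 0.73, with adjusted p = 0.733 and 0.617 in limma and overlapping groups. The median of the list was 0.305 without WT 2, 0.41 without Apelin-KO 1 and 1.21 without WT 3. At an unadjusted limma p under 0.05, 2 passed without WT 3 and 1 with the replicate block.

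Below the activating receptors, Src family kinases, Syk, adaptors and phospholipase C gamma carry the signal. Of 24 genes of this list 18 were tested, and none had an adjusted p under 0.05. At an unadjusted limma p under 0.05, 3 were higher in WT (Rac2 and Tyrobp among them) and 3 lower (Vav3, Fyn and Plcg1), and the median log2 difference was 0.09, against -0.01 over all genes tested. Tyrobp encodes DAP12, the adaptor of other myeloid receptors such as Trem2, and not the FcR gamma chain. Tyrobp was at 50.6, 85.4 and 30.6 FPKM in WT 1, 2 and 3, against 16.3, 28.1 and 26.4 FPKM in Apelin-KO 1, 2 and 3 (log2 difference 1.12, SE 0.37, limma adjusted p = 0.503). Tyrobp was higher in all WT samples, with WT 3 closest to Apelin-KO 2. Syk, the kinase that binds the phosphorylated gamma chain, was near 6 FPKM in both groups, at 5.63 ± 0.561 in WT and 6.22 ± 0.448 in Apelin-KO (SD, n = 3), and its log2 difference was -0.12 (limma adjusted p = 0.743). Vav3, an exchange factor for Rac proteins, was lower in all WT samples, with a log2 difference of -0.27 (SE 0.10, limma adjusted p = 0.513). Rac2 and Tyrobp are expressed in leukocytes, while Fyn and Plcg1, at 108 ± 12.8 and 44.4 ± 5.31 FPKM in WT, are expressed in many cell types. The number of higher genes was 7 without WT 3, and the number of lower genes was 0 without WT 2 or Apelin-KO 3 and 1 without Apelin-KO 1 or Apelin-KO 2. With the own variance of each gene 0 were higher and 1 lower, and with the replicate block 0 were lower. Without the filter 5 were higher, and for genes averaging 5 FPKM or more 1 was.

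Below Fcgr2b, the phosphatases SHIP1 (Inpp5d) and SHP-1 (Ptpn6) end the signal. Of 12 inhibitory genes 9 were tested, and none had an adjusted p under 0.05. The list also holds inhibitory receptors other than Fcgr2b, among them Sirpa and Lilrb4a. Sirpa, Ptpn6 and Lilrb4a were higher in WT at an unadjusted limma p under 0.05. Inpp5d was at 30.3 ± 2.01 FPKM in WT and 31.9 ± 3.11 FPKM in Apelin-KO (SD, n = 3), and its groups overlapped. Sirpa, the CD47 receptor of macrophages, was at 25.3, 25.2 and 14.8 FPKM in WT 1, 2 and 3, against 14.1, 14.8 and 11.4 FPKM in Apelin-KO 1, 2 and 3, with WT 3 just above Apelin-KO 2 (log2 difference 0.63, SE 0.22, limma adjusted p = 0.509). Ptpn6 and Lilrb4a overlapped between the groups, with log2 differences of 1.05 and 0.98 (limma adjusted p = 0.512 for both) that were 0.68 and 0.65 without WT 2. The median of the list was -0.03. No gene of this list was left at an unadjusted p under 0.05 without WT 1, WT 2 or Apelin-KO 3, and 1 was left without Apelin-KO 1 or with the own variance of each gene. For genes averaging 5 FPKM or more 1 was higher in WT, and without the filter 5 were.

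The phagocyte oxidase makes superoxide when activating receptors are engaged. All 7 of its genes were tested, the median log2 difference was 0.60, and 5 were higher in WT at an unadjusted limma p under 0.05 (Rac2 and Cybb among them), with none at an adjusted p under 0.05. Rac2, the leukocyte Rac protein, was at 2.66, 4.88 and 1.34 FPKM in WT 1, 2 and 3, against 0.488, 1.10 and 0.520 FPKM in Apelin-KO 1, 2 and 3, with no overlap (log2 difference 1.14, SE 0.33, limma adjusted p = 0.501). Cybb, the catalytic subunit, was at 10.1, 16.4 and 4.18 FPKM in WT 1, 2 and 3, against 0.934, 4.90 and 3.73 FPKM in Apelin-KO 1, 2 and 3, and WT 3 lay below Apelin-KO 2 (log2 difference 1.40, SE 0.54, limma adjusted p = 0.515). This difference was 0.92 without Apelin-KO 1. Ncf4, a cytosolic subunit, differed by 0.60 with overlapping groups (limma adjusted p = 0.520). The count of 5 was 1 without WT 1 or Apelin-KO 1, 2 without WT 2 or Apelin-KO 3, 0 with the own variance of each gene, 2 with a pseudocount of 0.1 or without the filter or for genes averaging 5 FPKM or more, and 3 with the replicate block.

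FcRn needs beta-2-microglobulin and the recycling endosome. B2m was at 6350, 7039 and 7672 FPKM in WT 1, 2 and 3, against 5123, 6765 and 5968 FPKM in Apelin-KO 1, 2 and 3, so the groups overlapped (log2 difference 0.24, SE 0.14, limma adjusted p = 0.611, and 0.14 without Apelin-KO 1), while the mean of Fcgrt was lower in WT. Of 8 genes of the list 7 were tested, with a median log2 difference of -0.09 and none at an adjusted p under 0.05. This median was -0.136 without Apelin-KO 2 and -0.039 without Apelin-KO 3. Rab4a, a GTPase of fast recycling, was lower in WT at an unadjusted p under 0.05, at 7.40, 7.97 and 9.004 FPKM in WT 1, 2 and 3, against 9.43, 9.97 and 12.8 FPKM in Apelin-KO 1, 2 and 3, with no overlap (log2 difference -0.36, SE 0.14, limma adjusted p = 0.516), and the difference was -0.23 without Apelin-KO 3. It did not pass without WT 1, WT 2, Apelin-KO 2 or Apelin-KO 3, or with the own variance of each gene.

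**Figure D4:**
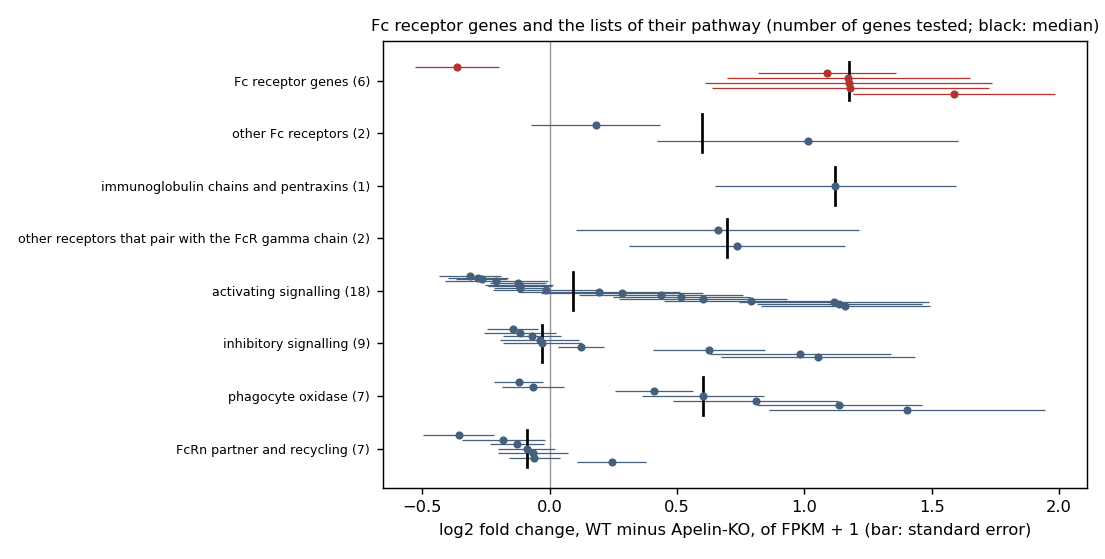
Log2 difference of FPKM + 1, WT minus Apelin-KO (horizontal axis), for each tested gene of the Fc receptor family (red) and of the 7 lists of its pathway (blue), with the standard error from limma as a bar, the median of each list as a black line and the number tested in brackets. The family spans -0.36 to 1.59, the activating signalling genes lie on both sides of 0, and the genes of FcRn recycling lie within -0.36 to 0.24.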

How the data were processed

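CD31+ CD45- cells were sorted from MC38 tumors. The authors made TruSeq stranded mRNA libraries, read 75 bases single-end, mapped them to mm10 with TopHat and deposited FPKM from Cufflinks 2.2.1, with 3 decimals per gene symbol. The submitters' processing notes name TopHat2 2.1.1, Bowtie2 2.2.4 and SAMtools 1.0, whereas the paper's methods name other versions. Annotation, strand setting and filters are not given in the sources used here, and overlapping genes could therefore share reads.

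FPKM were used as deposited, as log2(FPKM + 1), for genes averaging 1 FPKM or more. WT and Apelin-KO were set against each other in R 4.3.3 by limma 3.58.1 (two-sided moderated test, Benjamini-Hochberg adjustment over all genes tested, tested on simulated data). The paper's methods name an unmoderated test, which was run as an alternative. Members, gene lists and markers were chosen with earlier results of these data known. Named genes are the members, Apln, up to 4 genes per list with the lowest unadjusted p under 0.05, B2m, Syk, Inpp5d, Tyrobp, leading markers and the 3 most similar genes per member. Some genes that this rule names are not reported here. Fyn, Plcg1, Trim21, Fcrls, Clec4n and Clec7a were named outside it, after their values were seen. Reads were estimated for 3742 single-transcript genes over 700 bases, assuming 200-base fragments, and for the members from the longest transcript. Python 3.11.15 with pandas 2.3.3 and scipy 1.17.1 was used for the rest. Alternatives changed the pseudocount, filter, scaling, variance, weights, a replicate block or left out a sample.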

Additional observations from a re-analysis of the deposited data

How the results depend on the processing

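No member changed sign under any alternative tried. Changes of the filter, the intensity trend, the own variance and the replicate block leave the log2 difference of a gene as it is. Only the pseudocounts, scaling, weights and left-out samples could move it, and Fcgr4 was picked for its high WT values. With pseudocounts of 0.1 and 5 FPKM the log2 difference was 1.73 and 0.44 for Fcgr1 and 2.46 and 0.72 for Fcgr4, both of them low genes in which the pseudocount weighs most. Leaving out 1 sample at a time gave 0.88 to 1.39 for Fcgr1, 0.79 to 1.58 for Fcgr2b, 0.70 to 1.82 for Fcgr3, 1.20 to 1.91 for Fcgr4, 0.70 to 1.67 for Fcer1g and -0.52 to -0.26 for Fcgrt.

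Over all genes, 2 had an adjusted p under 0.05 with a pseudocount of 5, without the filter, for genes averaging 5 FPKM or more or with an intensity trend, 0 with the own variance of each gene, and 0 to 3 with 1 sample left out. At an unadjusted p under 0.05, the number higher in WT was 330 for genes averaging 5 FPKM or more, 376 with the own variance of each gene and 314 to 738 with 1 sample left out, and the number lower was 224 to 547 with 1 sample left out. The cause was not tested, apart from the stricter filter, which left 7878 genes and 4 members. The median of the activating genes was 0.28 without the filter, -0.12 for genes averaging 5 FPKM or more and -0.071 to 0.234 with 1 sample left out, so its sign is not settled. That of the inhibitory genes was 0.17 without the filter and -0.030 to 0.094 with 1 sample left out.

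Samples with the same replicate number did not deviate together in every pair (correlations across genes of -0.14, 0.21 and -0.02 for numbers 1, 2 and 3), and the study does not pair them. With the replicate number as a block, 529 genes were higher and 364 lower at an unadjusted p under 0.05, and 1 had an adjusted p under 0.05. The depth limits Fcgr4 and Fcgr1 most, which rest on 2 to 86 reads per sample.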
